A study of Mus musculus with 6 samples.

Results

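The genes described here are 10 regulators of the G1 phase of the cell cycle: the D-type cyclins Ccnd1, Ccnd2 and Ccnd3, the E-type cyclins Ccne1 and Ccne2, the kinases Cdk4 and Cdk6, and the kinase inhibitors Cdkn1b, Cdkn1c and Cdkn2c. They were taken by symbol from the annotation of the array, keeping probe sets that the annotation assigns to a single gene. This gave 26 probe sets for all 10 genes, among 45101 probe sets and 18194 named genes in all. The rule uses no measured value, but the members were chosen with earlier results of these data known.

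The samples came from OLV2-1, one mouse embryonic stem cell line that carries the fluorescent protein Venus knocked into Oct4 (Pou5f1), so every group is from this line and has the reporter. ESC are undifferentiated cells, labelled as the Oct4-Venus+ fraction and, per the sorting protocol, also gated as CD31+ (CD31 is the Pecam1 protein). EpiSC-like cells are the Oct4-Venus+/Pecam1- fraction of aggregates at day 3 of SFEBq, a serum-free suspension culture of reaggregated cells that leads towards neural tissue. Day7_Oct4-Venus+ cells are the Venus+ fraction of such aggregates at day 7, with no Pecam1 gate named. Cells of the first 2 groups were released with trypsin and kept 1 hour in medium before antibody staining, and those of day 7 were released with EDTA alone. Each group had 2 arrays, which the labels do not describe as separate cultures, and p-values therefore reflect the spread of these arrays alone, which may be technical. Reporter-positive cells are still a mixed population, and in such bulk samples fewer cells of a type and less RNA per cell cannot be told apart.

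In G1, D-type cyclins bind Cdk4 or Cdk6 and E-type cyclins bind Cdk2, and both complexes phosphorylate the retinoblastoma protein, which frees E2F transcription factors to switch on genes of DNA replication. Cdkn1b (p27) and Cdkn1c (p57) belong to the Cip/Kip inhibitors, which act on cyclin E and Cdk2 complexes, and Cdkn2c (p18) belongs to the INK4 inhibitors, which bind Cdk4 and Cdk6 only. Mouse embryonic stem cells are known for a short G1 phase with abundant cyclin E and little Cdk inhibition, and differentiation is known to lengthen G1.

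Promoter sequences were read for the members for which the RefSeq promoter table (GRCm38.p6) has an entry, which are 8 promoters of 6 of the 10 genes: Ccnd3, Ccne1, Cdk4, Cdk6, Cdkn1b and Cdkn2c. The 250 bases before each start site were searched on both strands for short motifs. These were CACGTG, the E-box bound by Myc and related factors, TTTNNCGC, a loose form of the E2F site, and GGGCGG, the GC box bound by Sp1. N stands for any base, so a match to TTTNNCGC can depart from the usual E2F site. No 2 matches of different motifs overlapped in the member promoters. The stretches below are shown because they hold the Cdk4 and Cdk6 matches to the E-box, the single E2F match among the members, and the GC boxes of Ccne1, a gene with its lowest values at day 7. They are printed 5′ to 3′ on the strand of the gene, with E-boxes in capitals for Cdk4, GC boxes for Ccne1, and the E-box and the E2F match for Cdk6. The Cdk4 stretch is chr10:127063355-127063534 (plus strand, 180 to 1 bases before the start site), that of Ccne1 is chr7:38107491-38107610 (minus strand, 120 to 1 bases before it) and that of Cdk6 is chr5:3343663-3343712 (plus strand, 230 to 181 bases before it).
Cdk4: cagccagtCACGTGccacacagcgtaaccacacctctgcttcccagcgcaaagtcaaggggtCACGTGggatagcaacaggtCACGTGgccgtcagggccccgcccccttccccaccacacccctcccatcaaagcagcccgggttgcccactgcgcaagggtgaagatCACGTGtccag
Ccne1: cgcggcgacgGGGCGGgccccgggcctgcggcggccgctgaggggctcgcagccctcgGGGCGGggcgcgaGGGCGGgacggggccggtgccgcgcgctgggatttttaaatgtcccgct
Cdk6: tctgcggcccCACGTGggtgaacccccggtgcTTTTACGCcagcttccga

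Cdk4 had 4 E-boxes in its promoter, beginning 172, 118, 98 and 11 bases before the start site. An E-box was present in 6.02% of the 32851 promoters of the table searched over the same 250 bases, and 4 or more of them in 0.0213%, which is 7 promoters. Cdk6 had 1 E-box, 220 bases before its start, and 1 match to the loose E2F form, TTTTACGC, 198 bases before it, a motif found in 4.28% of all promoters. GC boxes were in 6 of the 8 member promoters and in 32.7% of all promoters. The GC boxes of Ccne1 in capitals begin 110, 62 and 49 bases before its start, and another lies outside the stretch shown, at 236 bases on the opposite strand. These are matches of letters and no binding was measured.

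Values are the deposited linear signals in intensity units, with the brightest probe set standing for each gene, and group values are means ± SD over 2 arrays. Differences are of log2(signal + 16), which understates the change of dim genes, with the standard error and adjusted p of limma fitted to all 6 arrays. Median signals of the arrays lay between 63.99 and 76.3, and arrays of a group correlated over all genes with r between 0.976 and 0.978. Arrays of different groups were not clearly less alike, with r from 0.948 to 0.9757. The highest of these, between the first EpiSC-like and first day 7 arrays, was just above the 0.9755 of the 2 ESC arrays. The arrays numbered 1 and those numbered 2 differed in range, with highest signals of 30793 to 36841 against 63296 to 66643, so each difference is also given within the arrays of each number. Poly-A controls, RNAs added before labelling, had medians of 49.92 and 49.94 on the second ESC and second EpiSC-like arrays and of 260.2 to 386.9 on the other 4 arrays. As a sum, naive stem cell genes were brightest in ESC (summed signals of 8 genes 52509 and 68282, against 14825 to 31362 on the other arrays), and epiblast genes in EpiSC-like cells (6 genes, 31302 and 35274 against 10220 to 18295). Dnmt3b alone gave 17818 and 22681 of the EpiSC-like sums. Single genes could differ: Prdm14, a naive gene, read 1105 and 1211 in ESC and 1550 and 1548 at day 7. Otx2, an epiblast gene, read 3848 and 3827 in EpiSC-like cells and 3972 and 4509 at day 7. Pou5f1, the gene of the reporter, read 6244 to 14055 over the arrays. Pecam1 read 728 and 343 in ESC, 401 and 177 in EpiSC-like cells and 767 and 488 at day 7. Its RNA thus overlapped between cells sorted as positive and as negative for it, although within each array number ESC read higher than EpiSC-like cells.

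The widest movement among the 10 genes was in Ccnd2, which was lowest in ESC, highest in EpiSC-like cells and between them at day 7. Cdkn1c and Cdkn1b were highest at day 7, and Ccne1 was lowest there. Ccnd1 was highest in EpiSC-like cells, Ccnd3 was highest in ESC, and Ccne2, Cdk6, Cdk4 and Cdkn2c differed little between groups or differed more within groups. None of the 10 passed an adjusted p of 0.05 in any of the 3 comparisons.

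**Figure D1:**
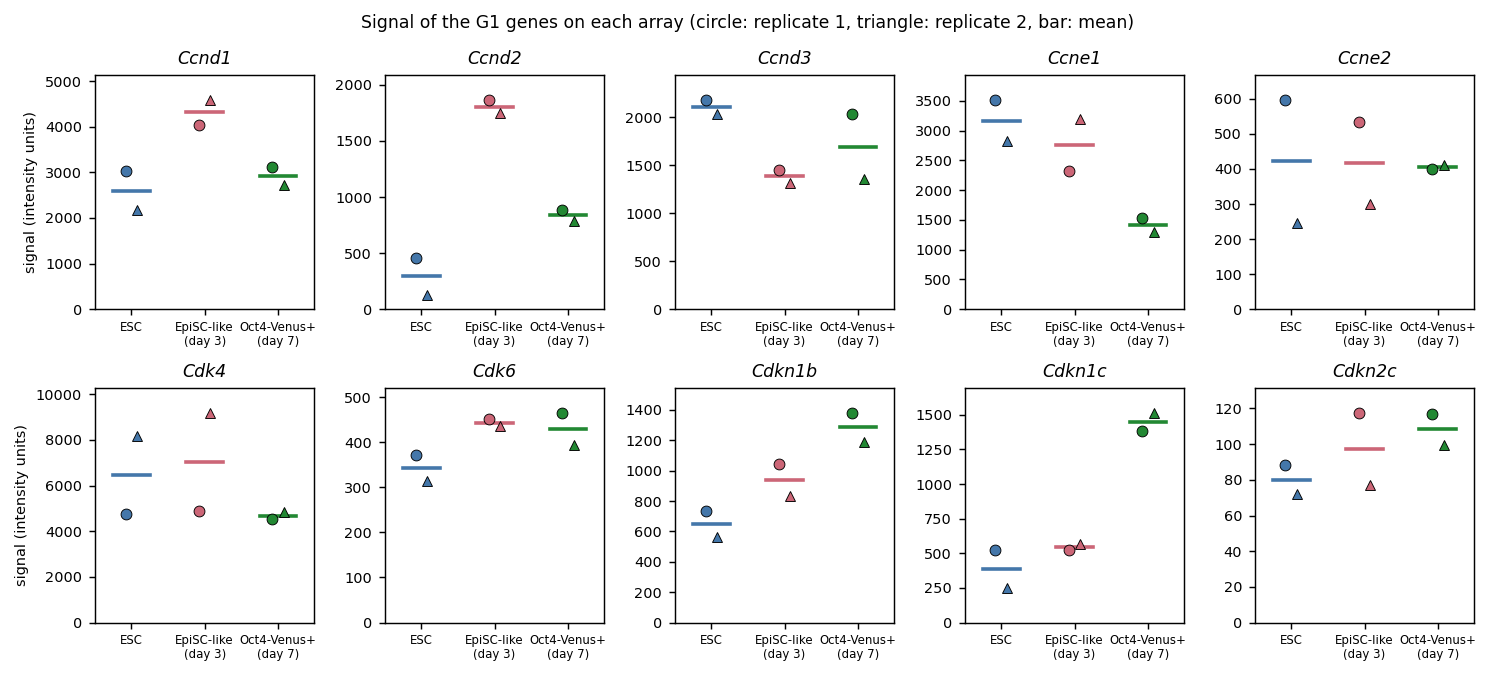
Signal of each of the 10 genes on each array, in intensity units on linear axes that start at 0, with circles for replicate 1, triangles for replicate 2 and a bar for the group mean. Ccnd2 is highest on both EpiSC-like arrays (1868 and 1746), Cdkn1c on both day 7 arrays (1386 and 1513), and Cdk4 is high on the second ESC and second EpiSC-like arrays.

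Ccnd2 encodes cyclin D2, a D-type cyclin used by neural progenitors. Its signal was 461 and 127 on the ESC arrays, 1868 and 1746 on the EpiSC-like arrays and 882 and 789 on the day 7 arrays. All 3 groups were apart from each other, and the largest gap between replicates was in ESC, where one array read 3.63 times the other. Means were 294 ± 236, 1807 ± 86.2 and 836 ± 65.3. EpiSC-like cells exceeded ESC by 2.80 ± 0.53 on the log2 scale, a 6.97-fold difference (adjusted p = 0.0596, limma), with 1.98 in the arrays numbered 1 and 3.62 in those numbered 2. The second ESC array, which also had low poly-A controls, was the dimmer one, and their part in its Ccnd2 value was not tested. Without that array the difference was 1.93, and without the first it was 3.67 with an adjusted p of 0.0469 from limma. Over the 16 alternatives to this fit the adjusted p lay between 0.0121 and 0.249, and it was under 0.05 in 6 of them. Day 7 exceeded ESC by 1.70 ± 0.53 (3.25-fold, adjusted p = 0.172, limma), with 0.91 and 2.49 within the array numbers. Day 7 was below EpiSC-like cells by a log2 difference of -1.10 ± 0.53 (adjusted p = 0.424, limma). Within the array numbers this was -1.07 and -1.13, so the step was alike in both for this probe set, the brightest.

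Cyclin D2 was read by 7 probe sets, and all 7 had the same order of group means, with EpiSC-like above day 7 and day 7 above ESC. Their differences between EpiSC-like cells and ESC ran from 1.68 to 3.17 on the log2 scale, and from 2.65 to 3.17 in the 5 probe sets whose mean was above the median of all genes. Those of day 7 minus EpiSC-like cells ran from -1.35 to -0.39, and not every probe set was even between array numbers. One bright probe set read 1410 and 2221 on the EpiSC-like arrays and 748 and 704 at day 7. Another read 862 and 1659, and then 482 and 438, so the step was larger in the arrays numbered 2 for both. With every probe set tested by itself, 3 of the 7 had an adjusted p under 0.05 (0.0421, 0.0421 and 0.0494, limma), where 0.581% of the 34945 probe sets did, and the brightest, which stands for the gene above, had 0.088. The 2 dimmest probe sets read 2.39 and 2.5 on the second ESC array and 62.9 and 27.1 on the first, so the low value of the second ESC array was seen by bright and dim probe sets alike. The probe sets read one RNA on the same arrays and are not replicates.

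**Figure D2:**
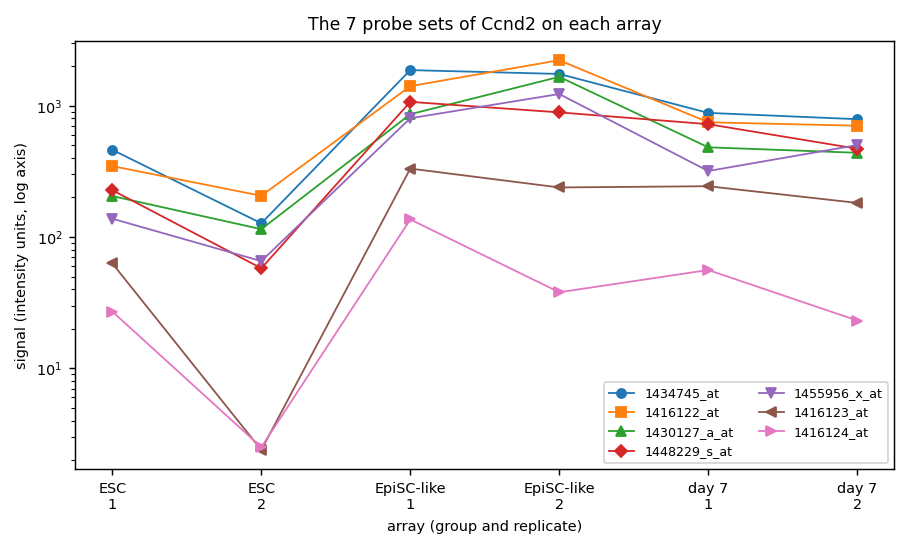
Signal of the 7 Ccnd2 probe sets on each of the 6 arrays, in intensity units on a log axis, with one line per probe set. Every line is lowest on the second ESC array and higher on both EpiSC-like arrays than on either ESC array.

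Ccnd1 encodes cyclin D1, the D-type cyclin that responds most directly to growth factor and Wnt signals. Its signal was 3018 and 2169 in ESC, 4040 and 4592 in EpiSC-like cells and 3119 and 2722 at day 7. The EpiSC-like arrays lay above all others, and the ESC and day 7 arrays overlapped. Means were 2594 ± 601, 4316 ± 390 and 2920 ± 281. The difference of EpiSC-like cells from ESC was 0.75 ± 0.26 (1.68-fold, adjusted p = 0.228, limma), with 0.42 and 1.08 within the array numbers. Day 7 differed from EpiSC-like cells by -0.56 ± 0.26 (adjusted p = 0.406, limma) and from ESC by 0.19 ± 0.26 (adjusted p = 0.756, limma). All 3 Ccnd1 probe sets put EpiSC-like cells above ESC, by 0.64 to 0.77, and above day 7, by differing amounts (day 7 minus EpiSC-like -0.82 to -0.16). For day 7 against ESC they did not have one direction, at -0.06 to 0.49, and with each array centred on its median the brightest of them turned to -0.02.

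Ccnd3, the gene of cyclin D3, ran the other way. Its signal was 2184 and 2039 in ESC, 1451 and 1319 in EpiSC-like cells and 2031 and 1358 at day 7. Both ESC arrays were above all others, narrowly so over the first day 7 array. The day 7 arrays stood 1.5-fold apart, and their values overlapped those of EpiSC-like cells. The difference of EpiSC-like cells from ESC was -0.60 ± 0.27 (adjusted p = 0.348, limma), and it was nearly the same within both array numbers, at -0.58 and -0.62. Day 7 differed from ESC by -0.34 ± 0.27 and from EpiSC-like cells by 0.26 ± 0.27, with adjusted p of 0.559 and 0.728 from limma. The other 2 Ccnd3 probe sets were dim, with means of 65 and 51, and did not share the direction of the bright one at day 7, so that the mean of the 3 probe sets gave 0.16 for day 7 against ESC. From ESC to EpiSC-like cells the 3 D-type cyclins thus had log2 differences of 2.80, 0.75 and -0.60 for Ccnd2, Ccnd1 and Ccnd3, and whether these 3 differ from each other was not tested.

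Ccne1 encodes cyclin E1, the main E-type cyclin of embryonic stem cells, and its promoter stretch with the GC boxes is printed above. Its signal was 3518 and 2818 in ESC, 2326 and 3195 in EpiSC-like cells and 1526 and 1289 at day 7. Both day 7 arrays lay below the 4 others, and ESC and EpiSC-like arrays overlapped. Means were 3168 ± 495, 2760 ± 615 and 1407 ± 168. Day 7 was below ESC by a log2 difference of -1.16 ± 0.27, which is 2.23-fold (adjusted p = 0.104, limma), with -1.20 and -1.12 within the array numbers. The adjusted p of this difference ranged from 0.0254 to 0.392 over the 16 alternatives and was under 0.05 in 3 of them. Against EpiSC-like cells day 7 differed by -0.95 ± 0.27 (adjusted p = 0.206, limma), with -0.60 and -1.30 within the array numbers. EpiSC-like cells differed from ESC by -0.21 ± 0.27 (adjusted p = 0.794, limma), and the sign was not the same in both array numbers (-0.59 and 0.18).

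A second Ccne1 probe set, of similar brightness, had the same direction in each comparison and -1.30 for day 7 against ESC. It was far less even between replicates, at 5086 and 1809 in ESC and 1395 and 4299 in EpiSC-like cells, against 1267 and 1184 at day 7. Ccne2, the gene of cyclin E2, had 1 probe set, which read 597 and 247 in ESC, 533 and 301 in EpiSC-like cells and 400 and 412 at day 7. Its group means, 422 ± 248, 417 ± 164 and 406 ± 8.78, differed by far less than the replicates of ESC, which were 2.42-fold apart. Its 3 log2 differences were 0.06, 0.07 and 0.02, each with a standard error of 0.46 and an adjusted p of at least 0.956 (limma), and their signs turned when arrays were centred on their medians or quantile normalized. By the range of its group means it was at percentile 1.96 among all genes.

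Cdk4 and Cdk6 encode the kinase partners of the D-type cyclins. The brightest Cdk4 probe set read 4750 and 8191 in ESC, 4893 and 9184 in EpiSC-like cells and 4521 and 4832 at day 7. The second array of ESC and of EpiSC-like cells stood above the first by 1.72-fold and 1.88-fold, and all other arrays were close together. These 2 high arrays are the 2 with low poly-A controls, and the part of this in the Cdk4 values was not tested. All 3 Cdk4 probe sets had this pattern. EpiSC-like cells differed from ESC by 0.10 ± 0.40 (adjusted p = 0.943, limma), a sign that turned when arrays were centred (-0.05). Day 7 differed from ESC by -0.42 ± 0.40 and from EpiSC-like cells by -0.52 ± 0.40 (adjusted p = 0.634 and 0.619, limma). Within the arrays numbered 1 these were -0.07 and -0.11, and within those numbered 2 they were -0.76 and -0.92.

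Cdk6 read 372 and 314 in ESC, 451 and 436 in EpiSC-like cells and 465 and 394 at day 7. Both ESC arrays were below the 4 others, and the EpiSC-like and day 7 arrays overlapped. The difference from ESC was 0.36 ± 0.23 for EpiSC-like cells and 0.31 ± 0.23 for day 7 (adjusted p = 0.529 and 0.532, limma), and at day 7 it was 0.31 within both array numbers. A second bright probe set had the same direction (0.62 and 0.31), and the remaining one, dim at a mean of 40, had the opposite direction in EpiSC-like cells (-0.76) and at day 7 (-0.17). Day 7 and EpiSC-like cells differed by -0.05 ± 0.23 (adjusted p = 0.957, limma), with a sign that was not the same over the alternatives.

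Cdkn1c encodes p57, a Cip/Kip inhibitor from an imprinted locus that is active in differentiating and cell cycle arrested tissue. It has 1 probe set, which read 523 and 251 in ESC, 525 and 567 in EpiSC-like cells and 1386 and 1513 at day 7. Both day 7 arrays were well above all others, while the first ESC array was level with the EpiSC-like arrays and the second was 2.09 times lower than the first. Means were 387 ± 193, 546 ± 29.8 and 1450 ± 89.6. Day 7 exceeded ESC by 1.95 ± 0.36 on the log2 scale, 3.86-fold (adjusted p = 0.0654, limma), with 1.38 and 2.52 within the array numbers. Without the second ESC array, the one with low poly-A controls, the difference was 1.44. Leaving out each array in turn gave 1.44 to 2.46, and the adjusted p over the 16 alternatives ran from 0.0118 to 0.300, under 0.05 in 4 of them. Day 7 exceeded EpiSC-like cells by 1.38 ± 0.36 (adjusted p = 0.175, limma), with 1.37 and 1.39 within the array numbers. EpiSC-like cells differed from ESC by 0.57 ± 0.36 (adjusted p = 0.519, limma), which was 0.00464 in the arrays numbered 1 and 1.13 in those numbered 2.

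Cdkn1b encodes p27, the Cip/Kip inhibitor that accumulates when cells leave the cycle and whose protein is removed by the ubiquitin ligase subunit Skp2. Its signal was 736 and 566 in ESC, 1042 and 836 in EpiSC-like cells and 1380 and 1192 at day 7. No groups overlapped, and the order was ESC, EpiSC-like cells, day 7 within both array numbers. Means were 651 ± 120, 939 ± 145 and 1286 ± 133. The difference of day 7 from ESC was 0.97 ± 0.26, 1.96-fold (adjusted p = 0.128, limma), with 0.89 and 1.05 within the array numbers, and its adjusted p was under 0.05 in 2 of 16 alternatives. The 2 steps of the culture contributed similar amounts, 0.52 ± 0.26 from ESC to EpiSC-like cells and 0.45 ± 0.26 from there to day 7 (adjusted p = 0.396 and 0.499, limma). A second, dim probe set had the same directions, but its day 7 arrays read 272 and 51.8.

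Cdkn2c, the gene of p18, was the one member whose mean lay below the median of all genes. It read 88.1 and 71.9 in ESC, 117 and 77.1 in EpiSC-like cells and 117 and 99.6 at day 7. The day 7 arrays were above the ESC arrays and overlapped the EpiSC-like arrays. Its log2 differences were 0.22 ± 0.27, 0.37 ± 0.27 and 0.15 ± 0.27 for EpiSC-like cells and for day 7, each minus ESC, and for day 7 minus EpiSC-like cells (adjusted p = 0.777, 0.522 and 0.858, limma). The first of these came to -0.04 without the first EpiSC-like array.

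**Figure D3:**
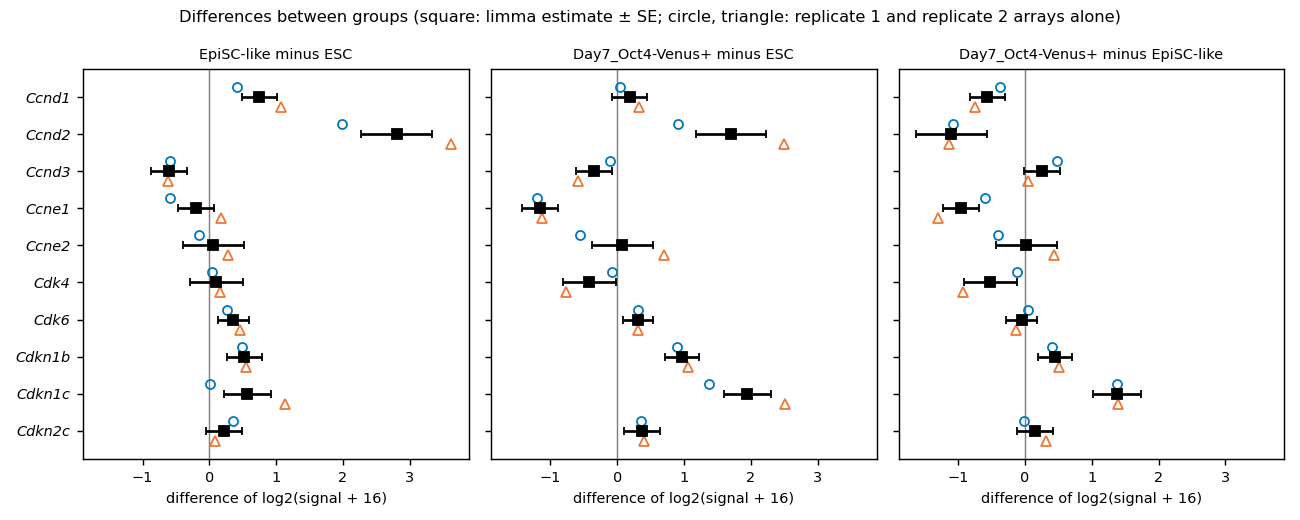
Difference between group means of log2(signal + 16) for each gene in the 3 comparisons, as the limma estimate with its standard error (squares) and within replicate 1 arrays (circles) and replicate 2 arrays (triangles) alone. Ccnd2 stands farthest from 0 in EpiSC-like cells against ESC (2.80), and Cdkn1c (1.95) and Ccne1 (-1.16) are on opposite sides of 0 at day 7 against ESC.

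In EpiSC-like cells against ESC, 0 of the 10 genes passed an adjusted p of 0.05 in limma, where 1.9% of the 18194 genes did (239 higher and 106 lower). At an unadjusted p under 0.05 (limma), 2 of the 10 passed, Ccnd1 and Ccnd2, as did 2904 of the 18194 genes. The arrays of the 2 groups did not overlap for 6 of the 10 genes, against 44.9% of all genes. Of these 5 were higher in EpiSC-like cells (Ccnd1, Ccnd2, Cdk6, Cdkn1b and Cdkn1c, against 25% of all genes) and 1 was lower (Ccnd3, against 19.9%). One member, Ccnd2, differed by more than 2-fold, as did 9.16% of genes. The median log2 difference was 0.29 over the members and 0.03 over all genes.

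In day 7 cells against ESC, 0 of the 10 passed in limma, where 1.04% of genes did (137 higher and 52 lower). An unadjusted p under 0.05 (limma) was found for 4 members (Ccnd2, Ccne1, Cdkn1b and Cdkn1c) and for 3331 of all 18194 genes. Groups did not overlap for 7 of the 10 genes against 50.1% of all genes. The 5 higher at day 7 were Ccnd2, Cdk6, Cdkn1b, Cdkn1c and Cdkn2c (26.6% of all genes were higher in this way), and the 2 lower were Ccnd3 and Ccne1 (23.5%). Past 2-fold were Ccnd2, Ccne1 and Cdkn1c, and 9.83% of genes. The members' median was 0.25 and that of all genes 0.02. The comparisons with ESC share its arrays, so the second ESC array, low for Ccnd2 and Cdkn1c, enters both.

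In day 7 cells against EpiSC-like cells, 0 of the 10 passed in limma, where 0.0385% of genes did (4 higher and 3 lower). An unadjusted p under 0.05 (limma) was found for 2 members (Ccne1 and Cdkn1c) and for 2564 of all 18194 genes. Groups did not overlap for 6 of the 10 genes and for 45.8% of all genes. Cdkn1b and Cdkn1c were higher at day 7 in this way (21.3% of all genes), and Ccnd1, Ccnd2, Ccne1 and Cdk4 were lower (24.5%). The median difference was -0.02 over the members and -0.02 over all genes. Past 2-fold were Ccnd2 and Cdkn1c, beside 7.45% of genes.

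Ranked by the range of the 3 group means among all genes, Ccnd2 was at percentile 99.3 and Cdkn1c at 97.3. Ccne1 was at 87.7, Cdkn1b at 81.4 and Ccnd1 at 68.8, and the other 5 were at 56.5 or below. The genes most like Ccnd2 over the 6 arrays, among 8887 genes at or above the median, were Homer2 (Pearson r = 0.999), Gnai3 (r = 0.995) and Dpy19l1 (r = 0.994). Those most like Cdkn1c were Lclat1 (r = 0.998), Bcap29 (r = 0.995) and Celf5 (r = 0.993). With 6 arrays in 3 groups high r is common: 5% of the genes compared had r above 0.889 with Ccnd2 and above 0.871 with Cdkn1c. The genes named are the highest, picked from all those compared.

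Other genes of the pathway were read from lists of textbook genes. Of 12 further cyclins, kinases and inhibitors of the G1 to S step 0 passed in any comparison, and their median log2 differences were 0.09 between EpiSC-like cells and ESC, 0.20 between day 7 and ESC and 0.14 between day 7 and EpiSC-like cells. Cdkn1a, which encodes p21, the remaining Cip/Kip inhibitor and a p53 target, read 756 and 825 in ESC, 2407 and 1842 in EpiSC-like cells and 2431 and 1905 at day 7. The ESC arrays were below all others for it, and the 2 culture stages overlapped. Its difference from ESC was 1.40 ± 0.26 in EpiSC-like cells and 1.43 ± 0.26 at day 7 (adjusted p = 0.0571 and 0.064, limma), and a second probe set gave 1.31 and 0.95. Cdkn2a, whose transcripts encode the INK4 inhibitor p16 and the p53 regulator Arf, read 331 and 195 in ESC, 598 and 371 in EpiSC-like cells and 1058 and 1111 at day 7. No groups overlapped for it, and day 7 exceeded ESC by 2.02 ± 0.35 (adjusted p = 0.0566, limma). Cdk2, the kinase partner of cyclin E, read 2454 and 1997 in ESC, 1624 and 1056 in EpiSC-like cells and 1766 and 1072 at day 7, with adjusted p of 0.362 and 0.359 (limma) for both stages against ESC.

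Among 13 genes of the Rb family and of E2F and DP factors, 1 passed, Rb1 at day 7 against ESC. Rb1 encodes the retinoblastoma protein, the substrate of the G1 kinases. Its signal was 728 and 697 in ESC, 2058 and 1288 in EpiSC-like cells and 2812 and 2542 at day 7. No groups overlapped, and day 7 exceeded ESC by 1.88 ± 0.29 (adjusted p = 0.0462, limma). Left-out arrays gave 1.81 to 1.96, and a dim second probe set gave 0.14. The call was lost with each left-out array, as were all or nearly all calls of this comparison, so the loss is not particular to Rb1. E2f3, an activator E2F, was highest in EpiSC-like cells (1295 and 1278, against 908 and 795 in ESC and 565 and 688 at day 7), with an adjusted p of 0.138 for day 7 against EpiSC-like cells (limma). The repressor E2f7 was likewise highest there, at 985 and 1000.3, against 488 to 634 on the other arrays.

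The products of G1 exit were read from 19 measured E2F target genes of DNA replication, such as the Mcm helicase genes, Pcna and the ribonucleotide reductase genes. Of these 0 passed in any comparison. Their median difference was -0.18 in EpiSC-like cells and -0.33 at day 7 against ESC, and 6 and 3 of the 19 were above 0, where 52.3% and 51.3% of all genes were. Orc1, a subunit of the origin recognition complex, read 2326 and 2329 in ESC, 1718 and 1347 in EpiSC-like cells and 1445 and 1222 at day 7 (adjusted p = 0.165 for day 7 against ESC, limma). For 15 measured genes of G2 and mitosis, medians were -0.08 and -0.10 against ESC, and 0 passed. Mki67, a marker of cycling cells, stayed between 3504 and 4813 on all arrays. Of 14 genes for ubiquitin ligase parts and for the deubiquitinases Usp28 and Usp37, which act on G1 proteins, 0 passed, and Skp2 read 1987 to 2769 on all arrays.

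Among 16 genes that feed into cyclin D and the inhibitors, 4 passed in at least 1 comparison. Lef1, a transcription factor of the Wnt pathway, rose in EpiSC-like cells from 231 and 64 to 2074 and 1864 (3.82 ± 0.57, adjusted p = 0.0352, limma), and read 1662 and 838 at day 7. Mycl, a Myc family gene, rose in EpiSC-like cells from 240 and 228 to 784 and 668 (1.56 ± 0.23, adjusted p = 0.0342, limma). At day 7 Mycl read 621 and 703 (1.44 ± 0.23 against ESC, adjusted p = 0.0505, limma). Myc itself, one of the factors that bind the E-box, fell at day 7: it read 908 and 579 in ESC, 756 and 538 in EpiSC-like cells and 94.5 and 84.6 at day 7. Its difference was -2.81 ± 0.31 against ESC (adjusted p = 0.0291, limma) and -2.63 ± 0.31 against EpiSC-like cells (adjusted p = 0.0748, limma). Mycn, another Myc family gene, read 3829 to 6326 and had an adjusted p of 0.477 at day 7 against ESC (limma). Cdk4 differed by -0.42 ± 0.40 in that comparison (adjusted p = 0.634, limma), and a link between Myc and Cdk4 was not tested. Smad3, a signal transducer of the TGF-beta and activin pathway, rose at day 7 from 379 and 407 to 1246 and 1330, with EpiSC-like arrays at 689 and 691 (1.67 ± 0.22, adjusted p = 0.0371, limma). Its dim probe sets, with means of 21.4 and 43.6, gave 0.55 and -0.76 for day 7 against ESC, so one had the opposite direction. Left-out arrays kept the sign of these 4 differences. Most calls of these genes were lost with an array left out, as were most calls over all genes. The loss is thus not particular to them.

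**Figure D4:**
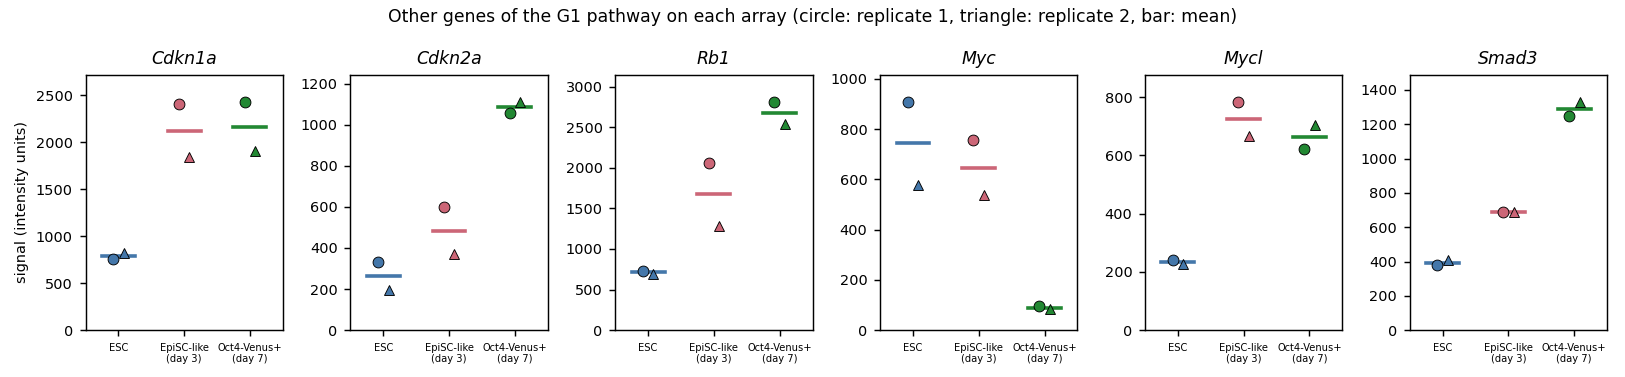
Signal of 6 other genes of the G1 pathway on each array, in intensity units on linear axes that start at 0, with circles for replicate 1, triangles for replicate 2 and bars for group means. Myc is lowest on both day 7 arrays (94.5 and 84.6), whereas Cdkn2a, Rb1 and Smad3 are highest there.

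Markers of other cells moved with the day 7 group. The 8 markers of primitive and visceral endoderm were all above ESC at day 7 by the log2 difference, 0 of them passed, and their summed signal was 2342 and 10091 at day 7 against 559 to 790 on the other 4 arrays. Col4a1 alone gave 1853 and 7417 of the day 7 sums. Gata4 (36.8 and 55.1 at day 7, 63.0 and 17.9 in ESC) and Apoa1 (3.74 and 108 at day 7, 10.8 and 22.3 in ESC) overlapped between these groups, and the other markers did not. None was at 0 on any array, and Afp, a defining marker, read 64.3 and 471 at day 7 against 0.385 to 13.5 elsewhere. Of the 6 neuron markers 5 were above ESC at day 7 and 6 were above EpiSC-like cells, with median differences of 0.37 and 0.64, and 1 passed, Stmn2, which fell against ESC. Their sum was 3774 and 7077 at day 7, 3757 and 2856 in EpiSC-like cells and 10909 and 15145 in ESC, where Stmn2 alone gave 8317 and 13364. Dcx read 78.3 and 604 at day 7 against 2.57 to 33.4 elsewhere. Afp and Dcx were both higher on the second day 7 array than on the first, whereas Cdkn1c read 1386 and 1513, Cdkn1b 1380 and 1192 and Ccne1 1526 and 1289 on these arrays. The part of these cells in the day 7 values of the members was not tested. The actin control, as the log2 difference of its 3′ from its 5′ probe sets, a sign of RNA quality, was 0.71 and 0.94 on the day 7 arrays against 0.46 to 0.58 on the other 4, whereas that of Gapdh was -0.12 and -0.18 against -0.36 to 0.00539. The part of this in the day 7 values was not tested either. Summed signals over the arrays were 296 to 653 for 4 mesoderm markers, 427 to 1262 for 6 fibroblast markers and 345 to 561 for 5 blood and endothelium markers. None of these 15 genes passed in either comparison of day 7, Col1a2 rose in EpiSC-like cells, and T was not measured. Of the 6 neural progenitor genes 3 rose in EpiSC-like cells (Sox1, Fabp7 and Prom1). Sox1 and Prom1 had the group order of Ccnd2, ESC lowest and EpiSC-like cells highest, and the other 4 genes did not all share it: Fabp7 was highest at day 7 (666 and 1511), Sox2 was lowest in EpiSC-like cells, Pax6 was lowest at day 7, and Nes overlapped between the 2 stages.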

How the data were processed

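RNA of 6 samples, 2 per group, was measured on Affymetrix 3′ arrays. The authors deposited linear signal intensities per probe set. Affymetrix Expression Console, version 1, is named per the submitters' processing notes, and its role and algorithm are not given in the sources used here. The trimmed mean intensity of every array was 500.003 or 500.004 (2% of probe sets removed at each end), so arrays had been scaled before deposition. The number of arrays limits precision.

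Of 45101 probe sets, 64 controls were left out, 34945 had 1 gene, 932 several and 9211 none. Symbols were checked by gene identifier against RefSeq (GRCm38.p6; 34741 probe sets found, 0 changed). The brightest probe set by mean log2 value stood for a gene, which gave 18194 genes. log2(signal + 16) was fitted with limma (version 3.58.1, R 4.3.3) to 3 group means and moderated with eBayes, with 3 residual degrees of freedom. Calls are Benjamini-Hochberg adjusted p under 0.05 over all genes. The fit was tested on simulated data.

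Members, lists and tests were chosen with earlier results of these data known. Named genes are the 10 members, up to 4 called genes per list with uncalled ones as values, Pou5f1 and Pecam1, and the 3 genes most like each of the 2 members of widest range. The main fit was planned without the replicate number, which served as a block in an alternative. Deviations from group means correlated between same-numbered arrays with r of 0.28, 0.08 and 0.10 (ESC and EpiSC-like, ESC and day 7, EpiSC-like and day 7). These r are over all genes, dim ones included, and cannot decide whether some genes differ by array number. For the same 3 comparisons, genes at an unadjusted p under 0.05 (limma) were 2904, 3331 and 2564 in the main fit. With the replicate number as a block they were 3369, 3920 and 3055. Alternatives were the pseudocount, filters on dim genes, scaling, the probe set rule, a replicate block, left-out arrays and an intensity trend.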

Additional observations from a re-analysis of the deposited data

How the results depend on the processing

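Of 477 alternative values of the 30 member differences, 439 kept their direction and their side of the threshold, 15 moved past it and 23, in 11 differences, changed sign. Many of these values were fixed in advance. The filters, the test of every probe set, the replicate block and the trend leave a difference as it is. So does leaving out an array of the group outside the comparison. No member was called in the main fit, so settings that call few or 0 genes could hardly move one past the threshold. The 439 is therefore no measure of robustness. In the order EpiSC-like against ESC, day 7 against ESC and day 7 against EpiSC-like, the 345, 189 and 7 genes called became 0, 0 and 0 with a pseudocount of 1, 672, 679 and 206 with 64, 672, 567 and 144 with a filter at the 25th percentile of gene means, 734, 843 and 315 with one at the median (where Cdkn2c has no value), 203, 9 and 0 with every probe set tested, and 794, 791 and 199 with an intensity trend. Quantile normalization left 0 in the last comparison. The replicate block left 0, 0 and 0, with 3369, 3920 and 3055 genes at an unadjusted p under 0.05 in limma and 0 members called. Leaving out 1 array gave 0 to 63, 0 to 10 and 0 to 0, so the counts rest on every array. Centring each array on its median moved the median of all genes from 0.03, 0.02 and -0.02 to -0.13, -0.20 and -0.08 and the split of calls from 239 higher and 106 lower to 184 and 149, from 137 and 52 to 93 and 82, and from 4 and 3 to 5 and 5. With quantile normalization the splits were 157 and 106, and 95 and 51.

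Members called in EpiSC-like cells against ESC went from 0 to 1 (Ccnd2) with a pseudocount of 64, either filter, the mean of a gene's probe sets or the trend, and to 0 to 1 with left-out arrays. At day 7 against ESC they went from 0 to 2 with a pseudocount of 64 (Ccne1, Cdkn1c), 1 with the 25th percentile filter (Cdkn1c), 3 with the median filter and 3 with the trend (Ccne1, Cdkn1b, Cdkn1c). No alternative called a member in day 7 against EpiSC-like cells. Signs turned as follows. For EpiSC-like against ESC, Ccne2 gave -0.10 centred and -0.077 quantile normalized, and Cdk4 -0.047 centred. For day 7 against ESC, Ccnd1 gave -0.025 and Ccne2 -0.14 centred, Ccne2 -0.083 quantile normalized, and Ccnd3 0.16 with the mean of its probe sets. For day 7 against EpiSC-like, Ccne2 gave -0.043 centred and -0.0051 quantile normalized, Cdkn1a -0.029 centred, and the mean of probe sets gave 0.077 for Cdk6, -0.16 for Cdkn1a and 0.14 for Mycl. With left-out arrays, EpiSC-like against ESC ran from -0.43 to 0.021 for Ccne1, -0.56 to 0.67 for Ccne2, -0.35 to 0.56 for Cdk4, -0.038 to 0.48 for Cdkn2c and -0.50 to 0.14 for Myc. Day 7 against ESC ran from -0.051 to 0.42 for Ccnd1 and -0.54 to 0.68 for Ccne2. Day 7 against EpiSC-like ran from -0.027 to 0.55 for Ccnd3, -0.38 to 0.41 for Ccne2, -0.16 to 0.067 for Cdk6, -0.11 to 0.41 for Cdkn2c and -0.16 to 0.22 for Cdkn1a. The cause of these changes was not tested. With 2 arrays a group and 3 residual degrees of freedom, a gene that misses the threshold is not shown to be unchanged, and dim genes such as Cdkn2c have the least signal over background.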
